A study of Macaca mulatta with 9 samples.

Results

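The insulin-like growth factor (IGF) binding proteins IGFBP1 to IGFBP7 were examined in pluripotent stem cells of rhesus macaque embryos (ES cells) and in their differentiated counterparts. The 7 genes were found by symbol in the deposited annotation of the array, where they are represented by 17 probe sets of 52763 and are 7 of 19671 named genes. IGFBP5 has 6 probe sets, IGFBP7 has 3, IGFBP1, IGFBP3 and IGFBP4 have 2 each, and IGFBP2 and IGFBP6 have 1 each. A gene was read through its probe set of highest mean level, and the other probe sets are described beside it.

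Total RNA was hybridised to 9 Affymetrix Rhesus arrays. Of these, 1 held RNA of pooled embryoid bodies (EBs), clumps of ES cells that differentiate on their own once FGF2 is removed, and 1 held RNA of skin fibroblasts of an adult, grown in medium with 10% serum and collected at confluence with trypsin. The labels give 30 days for the EBs but describe that culture differently, 1 field as low-adhesion dishes throughout and another as a suspension phase followed by gelatin-coated dishes, and they do not say which lines were pooled. The undifferentiated group was 5 ES cell lines, ORMES6, ORMES7, ORMES9, ORMES10 and ORMES13, cultured with 4 ng/ml FGF2 and 15% serum on mouse embryonic fibroblasts that no longer divide, from which colonies of good morphology were taken by hand. Biological replicates exist for ORMES6 alone (3, named A, B and C), so the 5 lines fill 7 ES arrays. EBs and fibroblasts therefore have no replicates, and no genotype, sex or passage is used here.

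IGF binding proteins are secreted carriers of IGF1 and IGF2. They hold most of the IGF outside cells, lengthen its life and control how much reaches the IGF1 receptor, and proteases that cut them set the ligand free. IGFBP3 and IGFBP5 also join IGF and the acid-labile subunit, encoded by IGFALS, in a ternary complex in serum, while IGFBP7 binds IGFs only weakly. Cultured fibroblasts and other mesenchymal cells are known sources of several of these proteins.

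The arrays were on 1 scale, with trimmed means of 200.01 to 200.03. The geometric mean of the hybridisation spikes was 616.9 for the EBs and 1013 for the fibroblasts, against 683.2 and 700.7 for ORMES6 replicates A and B and 1073 to 1360 for the other 5 ES arrays. The 3′ to 5′ signal ratio of actin, a sign of RNA or labelling quality, was 7.16 in the EBs and 13.1 in the fibroblasts and ran from 22.7 to 66.2 in the ES arrays. That of GAPDH was 1.606 in the EBs and 2.737 in the fibroblasts, against 2.554 to 5.195 in the ES arrays. For actin both differentiated arrays thus lay below every ES array, and the part of this quality in their differences from the ES lines was not tested. All 6 ES cell markers on a list that includes POU5F1, SOX2 and NANOG were lower in EBs and in fibroblasts than in the ES lines (limma, adjusted p under 0.05). Among all genes, 402 were higher and 348 lower in the EBs, and 1396 were higher and 2182 lower in the fibroblasts. Centring every array on its own median turned the fibroblast split into 1939 higher and 1529 lower. The median difference of all genes from the ES lines was -0.04 for EBs and -0.25 for fibroblasts on the log2(signal + 16) scale, and the fibroblast median was 0.03 after median centring.

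Fibroblasts lay above every ES array for 6 of 7 members, where 18.3% of all genes did so, and IGFBP1 was the exception. IGFBP2, IGFBP4, IGFBP5, IGFBP6 and IGFBP7 were higher in fibroblasts than in the ES lines by 2.87 to 5.40 on the log2 scale, which passed the test in 5 of 7 members, where 7.1% of all genes were called higher. IGFBP2 and IGFBP6 were higher in the EBs, which is 2 of 7 members, where 2.04% of all genes were called higher. No member was called lower in either comparison. The median difference over the 7 members was 1.78 in EBs and 4.41 in fibroblasts. Differences are those of a lone array from the 5 ES line values in a limma fit on log2(signal + 16) across all probe sets, with ORMES6 as the mean of its replicates and Benjamini-Hochberg adjustment, so that p measures the spread between lines and assumes that a lone array varies as the lines do. The EB and fibroblast comparisons share the same ES lines. In such bulk RNA, fewer cells of a type and less RNA per cell cannot be told apart.

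**Figure D1:**
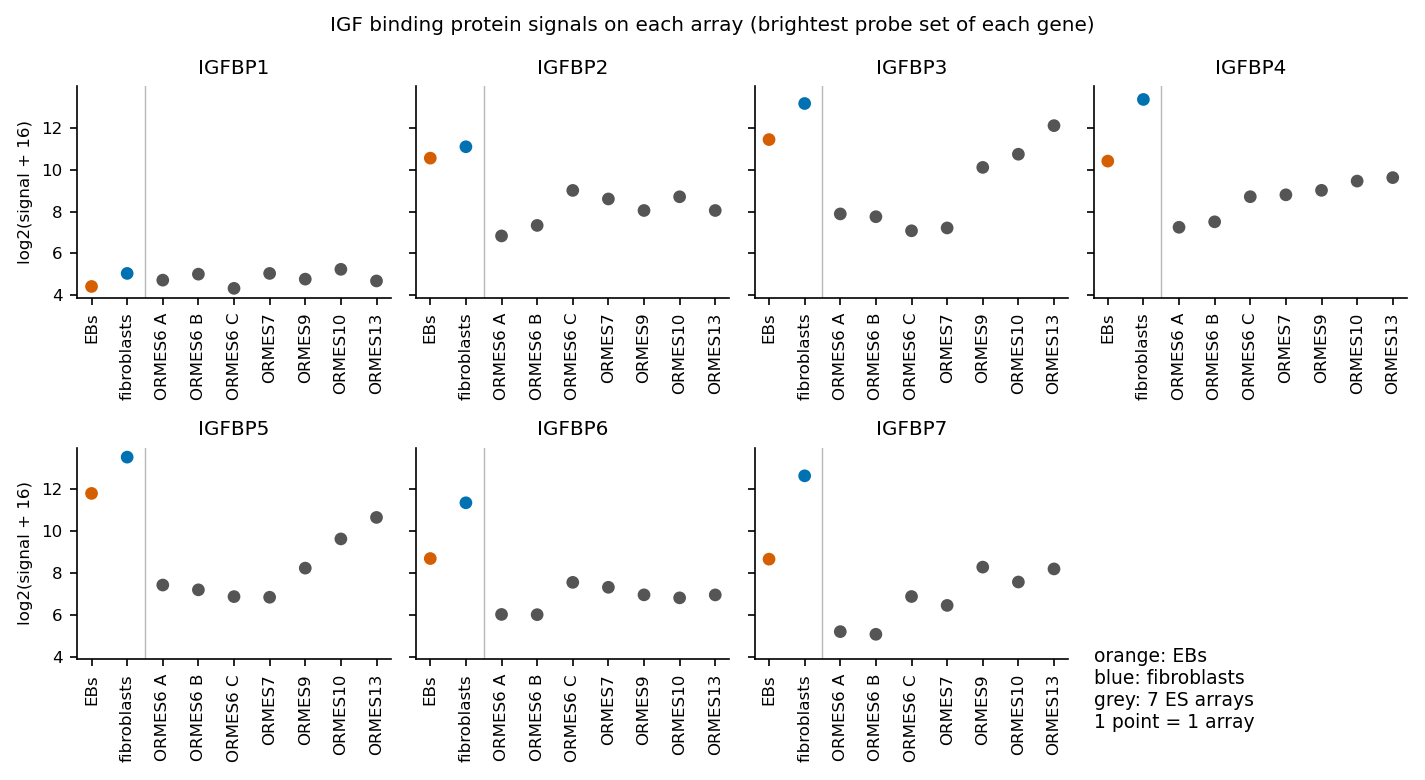
Level of each IGF binding protein on each of the 9 arrays, as log2(signal + 16) of the gene's brightest probe set, with 1 point per array; EBs are orange, fibroblasts blue and the 7 ES arrays grey. Fibroblasts lie above all ES arrays for every member except IGFBP1, and IGFBP3 and IGFBP5 spread widely between ES lines.

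IGFBP2, a carrier abundant in fetal tissues and fluids that can also bind integrins, was the member with the firmest difference in the EBs. Its signal was 1487.2 in the EBs and 2174.7 in the fibroblasts. In ES cells it was 98.5, 146.1 and 500.3 in ORMES6 replicates A, B and C, 373.1 in ORMES7, and 249.7, 402.4 and 249.7 in ORMES9, ORMES10 and ORMES13. Both differentiated samples lay above all 7 ES arrays, and the ES values did not separate the lines, since the 3 ORMES6 replicates alone covered their whole range. IGFBP2 was higher in EBs by 2.32 ± 0.41 (log2, SE; adjusted p = 0.0242 by limma), a 5.01-fold difference on this scale, and higher in fibroblasts by 2.87 ± 0.41 (adjusted p = 0.00214 by limma). The EB call was lost without ORMES6 replicate C (2.45, adjusted p = 0.0724 by limma), without ORMES9 (2.28, adjusted p = 0.0539 by limma), with the 7 ES arrays taken as separate replicates (2.47, adjusted p = 0.0777 by limma) and with the spike level as a covariate (2.51, adjusted p = 0.357 by limma).

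IGFBP6, which binds IGF2 with much higher affinity than IGF1, had a signal of 398.7 in the EBs and 2607.5 in the fibroblasts. In ES cells the signal was 49.2, 48.7 and 172.5 in ORMES6 A, B and C, 144.1 in ORMES7, and 108.7, 96.9 and 108.4 in ORMES9, ORMES10 and ORMES13. EBs and fibroblasts again did not overlap the ES arrays, and ORMES6 A and B were the lowest arrays. The difference was 1.78 ± 0.37 in EBs (log2, SE; adjusted p = 0.0438 by limma) and 4.44 ± 0.37 in fibroblasts (adjusted p = 0.000144 by limma). The EB call lay close to the threshold: it held in 6 of 17 alternative fits, with adjusted p of 0.0238 to 0.335 by limma, and was lost when any ES line or ORMES6 replicate C was left out. The fibroblast call held in all 17.

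IGFBP4, an inhibitor of IGF action that the protease PAPPA cuts, had a signal of 1345.8 in the EBs and 10461.8 in the fibroblasts. Its ES signals were 136.4, 166.6 and 403.2 in ORMES6 A, B and C, 430.4 in ORMES7, and 501.6, 687.0 and 772.8 in ORMES9, ORMES10 and ORMES13. The EBs were above every ES array, but the difference of 1.47 ± 0.57 (log2, SE) did not pass the test (adjusted p = 0.241 by limma). In fibroblasts the difference was 4.41 ± 0.57 (adjusted p = 0.0014 by limma). The other probe set, MmugDNA.38233.1.S1_at, had 76.9 in EBs, which lay inside the ES range of 47.8 to 91.7, and 1027.2 in fibroblasts, which lay above it and was called (3.59, adjusted p = 0.000623 by limma).

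IGFBP7, a secreted protein also found in vascular basement membranes, had the largest fibroblast difference of the 7 representative probe sets. Its signal was 390.4 in the EBs and 6391.9 in the fibroblasts, against 20.9, 17.8 and 102.0 in ORMES6 A, B and C, 71.9 in ORMES7, and 296.2, 174.7 and 278.0 in ORMES9, ORMES10 and ORMES13. The EB value stood just above ORMES9, and the fibroblast value far above all others. The difference was 1.42 ± 0.87 in EBs (log2, SE; adjusted p = 0.485 by limma) and 5.40 ± 0.87 in fibroblasts (adjusted p = 0.00419 by limma). The gene's other probe sets disagreed with it in the EBs. MmugDNA.11710.1.S1_at had 1.2 in EBs and 77.3 in fibroblasts, against 14.6 to 32.5 in ES arrays, and its difference in EBs was -1.21 (adjusted p = 0.133 by limma). MmugDNA.5502.1.S1_at had 8.9 in EBs and 64.9 in fibroblasts, against 9.0 to 42.3 in ES arrays, where it was Absent on all 5 arrays with a detection call. Neither was called in fibroblasts, with differences of 1.23 (adjusted p = 0.0648 by limma) and 0.95 (adjusted p = 0.3 by limma).

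IGFBP3, the main IGF carrier of serum, was high in both differentiated samples and also in some ES lines. Its signal was 2760.8 in the EBs and 9146 in the fibroblasts. In ES cells it was 221.2, 200.2 and 119.7 in ORMES6 A, B and C and 133.1 in ORMES7, but 1090.2, 1694.5 and 4390.3 in ORMES9, ORMES10 and ORMES13. The EBs lay inside the ES range, below ORMES13, and the fibroblasts above it. The spread between lines left differences of 1.89 ± 1.55 in EBs (log2, SE; adjusted p = 0.622 by limma) and 3.61 ± 1.55 in fibroblasts (adjusted p = 0.192 by limma), neither of which passed. The other IGFBP3 probe set, MmuSTS.2537.1.S1_at, gave the same order of samples at its extremes, with 927.3 in EBs and 4942.3 in fibroblasts, against 42.2 in ORMES6 C and 1122.6 in ORMES13. Its fibroblast difference of 4.48 ± 1.16 was called (adjusted p = 0.0375 by limma). With the spike level as a covariate the brightest probe set was called too in fibroblasts, at 4.50 (adjusted p = 0.04 by limma).

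IGFBP5, which binds extracellular matrix and is prominent in bone and muscle, had a signal of 3562.1 in the EBs and 11873.3 in the fibroblasts. Its ES signals were 156.5, 131.2 and 101.6 in ORMES6 A, B and C, 99.2 in ORMES7, and 286.0, 777.6 and 1600.4 in ORMES9, ORMES10 and ORMES13. EBs and fibroblasts were above all ES arrays, of which ORMES13 came nearest to them. The difference was 3.30 ± 1.21 in EBs (log2, SE; adjusted p = 0.209 by limma) and 5.03 ± 1.21 in fibroblasts (adjusted p = 0.0273 by limma). The fibroblast call was lost without ORMES6 (4.69, adjusted p = 0.0516 by limma) and without ORMES9 (4.96, adjusted p = 0.0538 by limma).

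The 6 probe sets of IGFBP5 gave different answers on the tests, while 5 of them agreed that fibroblasts stood far above the ES arrays. MmugDNA.42888.1.S1_at, which spanned 1.53 between lines against 3.81 for the brightest probe set, had 213.5 in EBs and 3615.8 in fibroblasts, against 6.4 to 48.7 in ES arrays. It was called in both comparisons, with 2.54 ± 0.54 in EBs (adjusted p = 0.0492 by limma) and 6.52 ± 0.54 in fibroblasts (adjusted p = 0.000149 by limma). MmuSTS.632.1.S1_at had 61.7 in EBs and 2868.8 in fibroblasts, against 4.6 to 134.1 in ES arrays, and was called in fibroblasts (6.35, adjusted p = 0.00278 by limma) but not in EBs (adjusted p = 0.627 by limma). MmugDNA.34480.1.S1_at and MmugDNA.42890.1.S1_at had fibroblast signals of 10225.2 and 10152.4, and each missed the threshold there (adjusted p = 0.0557 and 0.06 by limma). Both spread widely over the ES arrays, from 18.4 to 1909.4 and from 18.3 to 1483.4. The remaining probe set, MmugDNA.189.1.S1_at, was Absent on all 5 ES arrays with a detection call and had 33.1 in EBs and 40.9 in fibroblasts, against 6.6 to 41.8 in ES arrays. Counted over all 17 probe sets of the family, 3 were called higher in EBs, where 1.53% of all probe sets were, and 9 in fibroblasts, where 5.48% were.

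**Figure D2:**
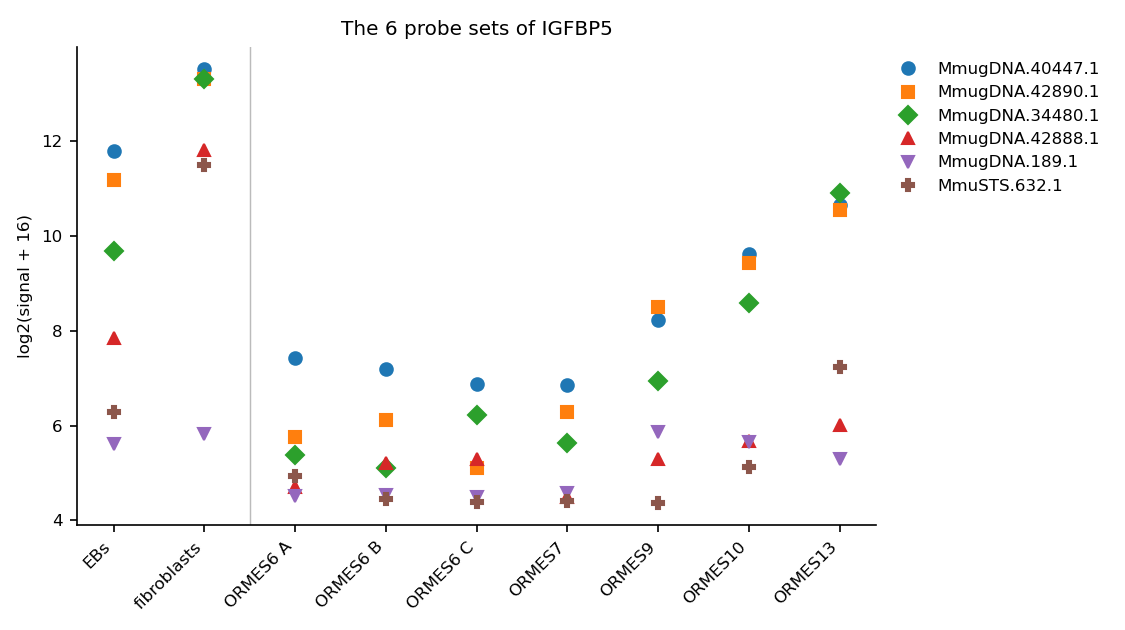
The 6 probe sets of IGFBP5 on each of the 9 arrays, as log2(signal + 16), with 1 marker shape per probe set and EBs and fibroblasts to the left of the line. The order of samples can be compared within a probe set but heights cannot be compared between probe sets; 5 of the 6 are highest in fibroblasts, and MmugDNA.189.1.S1_at stays low on every array.

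IGFBP1, a carrier made mainly by liver and decidua and lowered by insulin, stayed near background. Its signal was 5.5 in EBs and 17.1 in fibroblasts, and its ES signals ran from 4.2 to 21.9 with a median of 11.4. The groups overlapped, and the gene was Present on 1 and Absent on 4 of the 5 ES arrays with detection calls. Its differences were -0.46 ± 0.32 in EBs (log2, SE; adjusted p = 0.54 by limma) and 0.16 ± 0.32 in fibroblasts (adjusted p = 0.805 by limma), and the second probe set had a fibroblast difference of -0.16.

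**Figure D3:**
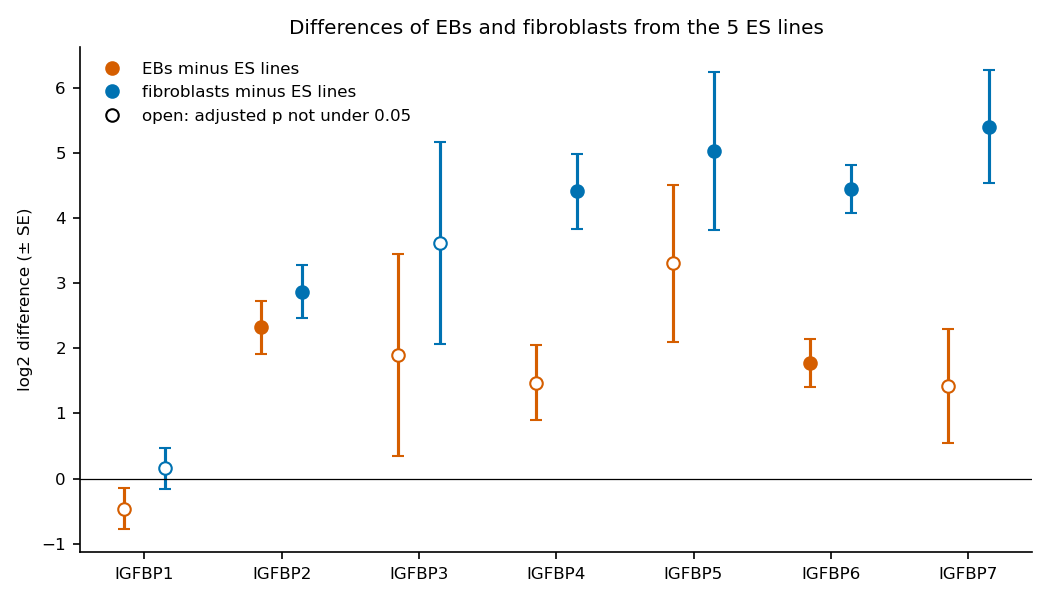
Difference of EBs (orange) and fibroblasts (blue) from the 5 ES lines for each member, in log2 units with the SE of the fit as bars; filled points have an adjusted p under 0.05. Filled EB points are those of IGFBP2 and IGFBP6, at 2.32 and 1.78, and the filled fibroblast points lie between 2.87 and 5.40.

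EBs lay above all 7 ES arrays for 5 of 7 members, where 21.6% of all genes did. The spike level was lowest in the EBs, and its part in these results was not tested. In the covariate fit its slope comes from the 5 ES line values alone, because EBs and fibroblasts each have their own term. The slope is then carried to the EB spike level of 616.9, below every ES array, so this fit cannot separate spike level from line or EB differences. With that covariate, 0 genes and 1 probe set were called in the EBs (limma; 4461 probe sets had an unadjusted p under 0.05), and the EB differences of IGFBP3, IGFBP4, IGFBP5 and IGFBP7 became 7.17, 3.42, 6.69 and 5.01, which are over 1.5 times the values without it. In the authors' deposited table, which gives for each ES array its log2 ratio to the EBs, IGFBP2 had ratios of -3.8 to -1.8 and IGFBP6 of -3.1 to -1.2, so all 7 ES arrays were lower than EBs for both genes. The same held for the brightest probe sets of IGFBP4 (-3.3 to -1.0), IGFBP5 (-5.7 to -1.2) and IGFBP7 (-4.5 to -0.4), which were not called in EBs. Other probe sets of IGFBP7 went the other way. MmugDNA.11710.1.S1_at had 1.8 to 2.8 on all 7 ES arrays, and MmugDNA.5502.1.S1_at had -0.4 for ORMES13 and 0.7 to 2.0 for the rest. For IGFBP5, ratios above 0 were 1.4 and 0.2 for ORMES13 on MmugDNA.34480.1.S1_at and MmuSTS.632.1.S1_at, and 0.6 for ORMES9 on MmugDNA.189.1.S1_at. These ratios come from the same arrays. In the authors' deposited table IGFBP3 had ratios of -4.8 to -1.0 for 6 ES arrays and 0.2 for ORMES13.

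The EB array was lower than the fibroblast array for all 7 members, where 38.1% of all genes were lower, and for all 17 probe sets, with no test because each is 1 array. EBs minus fibroblasts was -0.54 for IGFBP2 and -0.62 for IGFBP1 on the log2 scale. It was -1.72 for IGFBP3 and -1.73 for IGFBP5, the members of the ternary complex. The largest gaps were -2.66 for IGFBP6, -2.94 for IGFBP4 and -3.98 for IGFBP7.

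The ES lines differed from each other most in IGFBP3 and IGFBP5. On the brightest probe set of IGFBP3 the lines were ordered ORMES7, ORMES6, ORMES9, ORMES10 and ORMES13 from low to high, a span of 4.89 on the log2 scale. On that of IGFBP5 the order was the same with a span of 3.81. ORMES13 exceeded ORMES7 in signal by 33.0-fold for IGFBP3 and 16.1-fold for IGFBP5. These spans stood at the 99.8 and 99.4 percentiles of all genes, whose median span was 0.83, and 1.32% of all genes had a span of at least 3. The ORMES6 replicates had an SD of 0.43 for IGFBP3 and 0.28 for IGFBP5. For IGFBP3 the step between ORMES7 and ORMES6 was within this SD and the other steps were larger, and for IGFBP5 every step was larger. The second probe set of IGFBP3 spanned 3.76, and those of IGFBP5 spanned 1.34 to 5.35. Their order of lines was not always the same. ORMES6 was lowest on the second probe set of IGFBP3 and on MmugDNA.34480.1.S1_at, MmugDNA.42890.1.S1_at and MmugDNA.189.1.S1_at of IGFBP5. ORMES9 was lowest on MmuSTS.632.1.S1_at. ORMES13 was highest on all of these except MmugDNA.189.1.S1_at, where ORMES9 was.

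IGFBP7 spanned 2.56 between lines, at the 97.8 percentile, with ORMES9 highest, and IGFBP4 spanned 1.80, at the 93.2 percentile, with ORMES13 highest. For IGFBP4 the ORMES6 replicates alone spanned 1.46, with an SD of 0.78. Other probe sets spanned less and had ORMES10 highest: MmugDNA.11710.1.S1_at and MmugDNA.5502.1.S1_at of IGFBP7 at 0.66 and 1.22, and MmugDNA.38233.1.S1_at of IGFBP4 at 0.76. IGFBP2, IGFBP6 and IGFBP1 spanned 0.98, 0.79 and 0.55. The last 3 spans were near that of a typical gene, and for IGFBP2 and IGFBP6 each step between neighbouring lines was smaller than the SD of the ORMES6 replicates, 1.14 and 0.89. On IGFBP7, where that SD was 1.01, ORMES9, ORMES10, ORMES13 and the EBs followed each other with steps inside it.

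**Figure D4:**
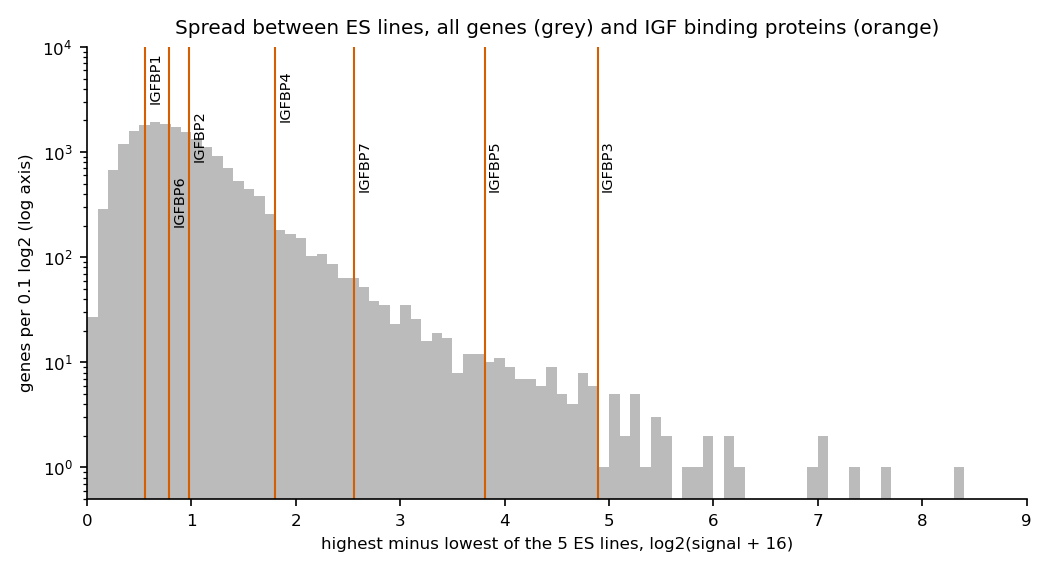
Histogram of the difference between the highest and the lowest of the 5 ES lines for 19671 genes, in log2 units, with the number of genes on a log axis; orange lines mark the 7 IGF binding proteins. IGFBP3 and IGFBP5 lie in the far right tail at 4.89 and 3.81, and IGFBP1, IGFBP2 and IGFBP6 lie in the bulk.

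No member passed the F test between lines, 0 of 7, where 0.163% of all genes did (limma, error from the ORMES6 replicates). IGFBP3 and IGFBP5 came nearest, with adjusted p of 0.0604 and 0.0789 by limma, and IGFBP7 and IGFBP4 had 0.49 and 0.536. IGFBP3 was called with an offset of 1 (adjusted p = 0.0492 by limma), with arrays centred on their median (0.0335) and with dim probe sets left out (0.0448). Replicate C of ORMES6 decided the rest: without it, 5 of 7 members were called, IGFBP2, IGFBP3, IGFBP4, IGFBP5 and IGFBP7, but so were 26.7% of all genes. Replicate C differed from A and B in the members themselves, with higher signals than both for IGFBP2, IGFBP4, IGFBP6 and IGFBP7 and lower signals than both for IGFBP1, IGFBP3 and IGFBP5. Replicates A and B also had the low spike level, and its part in these values was not tested.

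Setting each line in turn against the other 4 called 0 of 7 members in all 5 comparisons, where 0.0%, 0.0203%, 0.0305%, 0.0% and 0.0% of all genes were called for ORMES6, ORMES7, ORMES9, ORMES10 and ORMES13. For ORMES13 the differences of IGFBP3 and IGFBP5 were 3.19 ± 1.23 and 2.69 ± 0.90 (log2, SE). For ORMES6 those of IGFBP4 and IGFBP7 were -1.40 ± 0.38 and -1.91 ± 0.68. None of these was called. As the mean of its replicates, ORMES6 lay below the mean of the other lines for all 7 members, with differences of -2.47 to -0.25. ORMES10 lay above the mean of the other lines for 6. The median difference of all genes was -0.07 for ORMES6 and 0.06 for ORMES10, and how many genes went each way was not counted. ORMES6 replicate C alone had the highest ES signal of IGFBP2 and of IGFBP6, at 500.3 and 172.5.

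Markers of other cell types differed between the ES lines too. The summed signal of 11 fibroblast and mesenchymal markers was 40691 in the EBs and 55007 in the fibroblasts. In ES cells it was 3959 to 6459 in the ORMES6 replicates, 5299 in ORMES7, and 10878, 17927 and 24253 in ORMES9, ORMES10 and ORMES13. Of these markers 7 were Present in ORMES7, 10 in ORMES9 and 11 in ORMES10 and ORMES13. Of the 5 lines, ORMES13 was highest for 8 of the 11 (COL1A1, COL3A1, DCN, LOX, LUM, PDGFRA, PRRX1 and TWIST1), ORMES10 for COL1A2 and FAP, and ORMES7 for THY1. LUM and DCN, small proteoglycans of connective tissue matrix, had 5282.6 and 2381.5 in ORMES13, against 15.5 and 2.2 in ORMES7. Other members ran differently. The collagen gene COL1A2 had 245.6 in ORMES13 and 357.7 in ORMES9, against 794.3 to 1205.5 in ORMES6. THY1, a surface protein of fibroblasts, had 1939.6 in ORMES13 and 3110.6 in ORMES7, and was itself called lower in fibroblasts (-1.93, adjusted p = 0.00346 by limma). FAP, PRRX1 and LOX had 6515.3, 4814.2 and 5338.3 in the fibroblasts, against 41.0, 244.8 and 297.1 in ORMES13. No marker of this list was at 0.

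The summed signal of 10 liver and endoderm markers was 4391.6, 3507.8 and 8738.8 in ORMES9, ORMES10 and ORMES13, against 285.7 to 512.4 in ORMES6 and ORMES7, and that of 4 trophoblast markers was 1344, 901.5 and 3495.2, against 66.8 to 122.4. In EBs these sums were 725.7 and 446.3, and in fibroblasts 400.5 and 2064.8. A few genes carried both sums. HAND1 and CGA reached 2677.3 and 732.5 on ES arrays, while KRT7 and GCM1 reached only 80.2 and 40.0. APOA1, FGB and TTR reached 3704.8, 2311.9 and 1353.2, while ALB and TF reached only 23.0 and 72.4. ORMES13 was the highest line for 7 of the 10 and 2 of the 4 markers. Sums of the remaining lists of other cell types did not set ORMES9, ORMES10 and ORMES13 above ORMES6 and ORMES7 in this way. The summed signal of 6 endothelial markers was 429.1 in EBs and 129.4 in fibroblasts, with 1590.8, 1449.4 and 3211.5 in ORMES9, ORMES10 and ORMES13, against 1288.6 to 1904.4 in ORMES6 and ORMES7. That of 5 smooth muscle markers was 15916.2 in EBs and 25644.6 in fibroblasts, with 5950.1, 9163.4 and 6730.5 in the same 3 lines, against 7355.5 to 9512.9. That of 6 neural markers was 11044.5 in EBs and 1628.3 in fibroblasts, with 6833.6, 8988.4 and 6460.6, against 6166.6 to 10481.5. The summed signal of the 6 ES markers was 19508 in ORMES13 and 22241 to 29989.6 on the other ES arrays. The part of these cell types in the levels of IGFBP3 and IGFBP5 was not tested.

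The member profiles were also set against each other and against all genes, by the root mean square difference of centred log2 levels, a description with no test. The levels were not scaled to their span, so members that vary little lie close together whatever their order of lines. Over the 5 lines IGFBP1 and IGFBP2 were the closest of 21 pairs at 0.18, followed by IGFBP1 with IGFBP6 and IGFBP2 with IGFBP6. These members had small spans, and IGFBP1 was near background. IGFBP3 and IGFBP5, of wide span and the same order of lines on their brightest probe sets, ranked 7 at 0.59. Over all 7 sample values IGFBP4 and IGFBP6 were the closest pair, at 0.49. The gene nearest to IGFBP3 over the 7 values was PMP22, a myelin protein also made by fibroblasts, at 0.23, followed by the metalloprotease ADAM12, which can cut IGFBP3 and IGFBP5, at 0.37 and the transcription factor MAF at 0.53. IGFBP5 was nearest to IFI16 at 0.44, CaMKIINalpha at 0.49 and PGM5 at 0.50. IGFBP2 was nearest to ZBTB20, NRIP3 and SESN3 at 0.16 to 0.26, and IGFBP6 to PTPRE, RaLP and HDAC9 at 0.26 to 0.33. IGFBP4 was nearest to KBTBD9, CEBPD and LGALS3 at 0.32 to 0.37, and IGFBP7 to PCGF5, IL11 and NPY at 0.53 to 0.55. Fibroblasts were the highest of the 7 values for each of these 6 members, by 0.54 over the next sample for IGFBP2, 1.06 for IGFBP3 and up to 3.98 for IGFBP7.

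In the macaque genome annotation T2T-MMU8v2.0 IGFBP2 lies next to IGFBP5, and IGFBP3 next to IGFBP1. In each pair 1 member varied more between ES lines than the other: the spans were 3.81 for IGFBP5 and 0.98 for IGFBP2, and 4.89 for IGFBP3 and 0.55 for IGFBP1. IGFBP1 was near background, with ES signals of 4.2 to 21.9, and the span of IGFBP2 was 1.62 without ORMES6 replicate C. IGFBP4, IGFBP6 and IGFBP7 have no member as a neighbour.

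Of 48 other genes of the IGF pathway, all measured, 2 were called higher and 3 lower in EBs, where 2.04% and 1.77% of all genes were. In fibroblasts 10 were higher and 8 lower, where 7.1% and 11.1% were. The median difference of these genes was 0.30 in EBs and 0.22 in fibroblasts, and none was called between lines. The EB count was 0 with the spike covariate or without ORMES10, and 2 without ORMES7 or ORMES9.

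Of 3 ligands, 1 passed the test in fibroblasts and none in EBs. IGF1 had a signal of 574.9 in EBs and 1274.8 in fibroblasts, against 31.4 to 202.4 in ES arrays, and rose in fibroblasts by 3.69 ± 0.75 (log2, SE; adjusted p = 0.013 by limma). Its EB difference was 2.56 (adjusted p = 0.121 by limma). IGF2, the fetal growth factor, had 457.6 in EBs and 9.5 in fibroblasts, against 4.6 to 189.0 in ES arrays, and passed in neither comparison (2.82, adjusted p = 0.216, and -1.39, adjusted p = 0.48, by limma). In ES cells both ligands were highest in ORMES13, as IGFBP3 and IGFBP5 were on their brightest probe sets. None of the receptors was called. IGF1R had 171.4 in EBs and 317.8 in fibroblasts, against 132.7 to 341.5 in ES arrays, INSR had 243.2 and 792.0, against 214.1 to 986.6, and IGF2R, which clears IGF2, had 3165.6 and 1712.2, against 2475.3 to 4584.4.

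Below the receptors, the adaptor GRB14, an inhibitor of insulin receptor signalling, fell by 2.56 in EBs and fell by 2.84 in fibroblasts. In fibroblasts GRB10, a related inhibitor, fell by 1.55, GRB2 fell by 1.14 and the receptor substrate IRS2 rose by 1.80 (adjusted p of 0.00399 to 0.0356 for these 3 by limma). FOXO1, a transcription factor that the pathway keeps out of the nucleus, fell by 1.36 in EBs and fell by 1.46 in fibroblasts, while FOXO3 rose by 1.45 in fibroblasts. Of the kinase subunits, PIK3CB fell by 1.59 in EBs and PIK3R3 fell by 1.57 in fibroblasts.

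Of 10 proteases that cut IGF binding proteins and their inhibitors, 4 rose in fibroblasts and none passed in EBs, where 7.1% and 2.04% of all genes were called higher. STC1 and STC2, inhibitors of PAPPA, rose by 4.26 and 2.09, the serine protease HTRA1 rose by 3.87 and the metalloprotease ADAMTS1 rose by 5.45. ADAMTS1 had a signal of 467.8 in EBs and 11689 in fibroblasts, against 44.8 to 1008.7 in ES arrays, and STC1 had 1593.4 and 8556.4, against 255.6 to 764.3. In EBs the largest differences of the group were 2.61 for HTRA1, 1.86 for ADAM12, 1.85 for STC1 and 1.59 for PAPPA (adjusted p of 0.108 to 0.578 by limma). IGFALS of the ternary complex stayed dim, with 47.9 in EBs and 36.4 in fibroblasts, against 12.1 to 55.7 in ES arrays.

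The mRNA-binding proteins IGF2BP1, IGF2BP2 and IGF2BP3, which bind IGF2 transcripts and are mostly fetal, fell in fibroblasts by 3.35, 1.64 and 3.76. IGF2BP3 had a signal of 3667 in EBs and 488.1 in fibroblasts, against 5219.2 to 8311.3 in ES arrays. In EBs their differences were -1.13, -1.05 and -0.90, none of which passed.

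Among 9 relatives that share the N-terminal IGFBP domain, IGFBPL1 and KAZALD1 rose in EBs, by 3.66 and 2.15. IGFBPL1 had a signal of 870.9 in EBs and 11.7 in fibroblasts, against 5.4 to 99.1 in ES arrays, so that the EBs alone stood high. In fibroblasts NOV and CYR61, matricellular proteins of the CCN family, rose by 2.14 and 1.61.

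**Figure D5:**
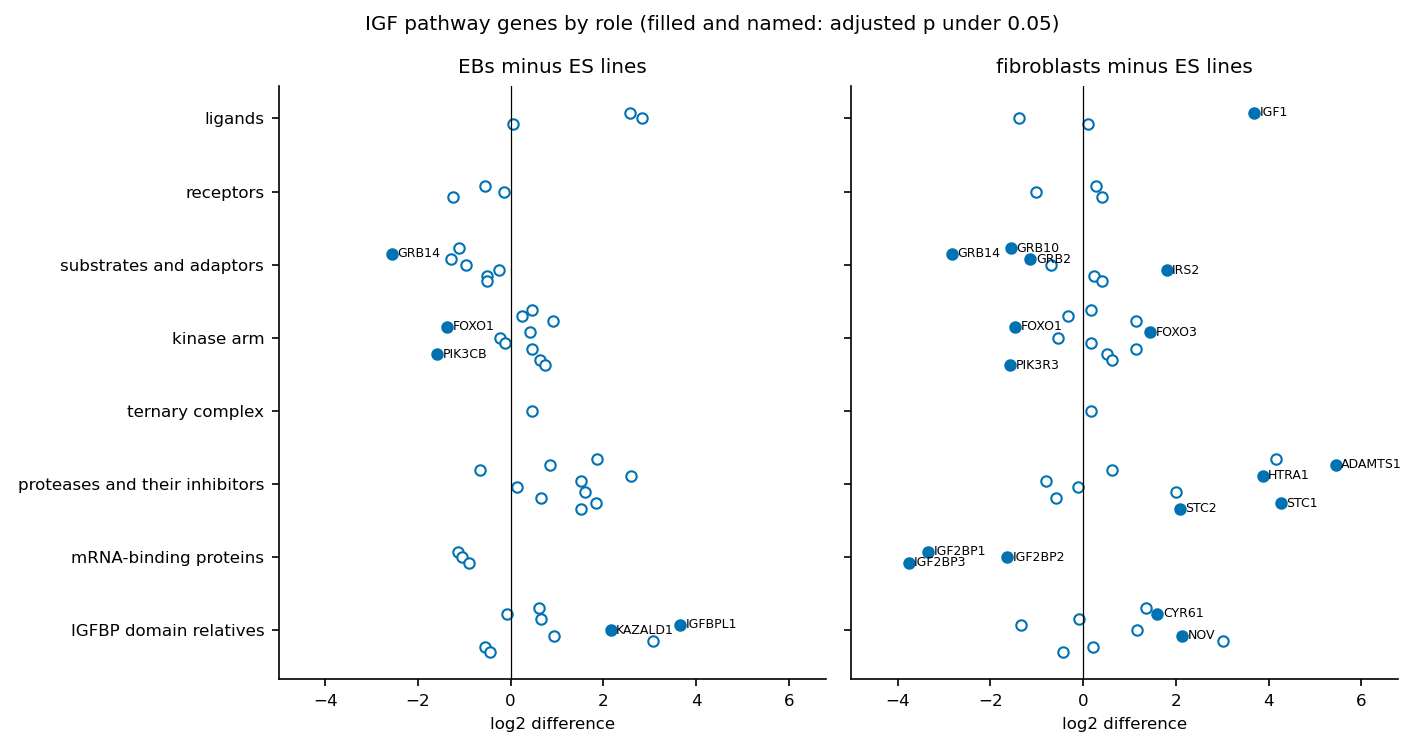
Differences of EBs (left panel) and fibroblasts (right panel) from the ES lines in log2 units for the IGF pathway genes reported here, grouped by role; each point is 1 gene, and filled, named points have an adjusted p under 0.05. Proteases and their inhibitors reach 5.45 in fibroblasts and the mRNA-binding proteins lie below 0 in both panels.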

How the data were processed

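The authors deposited probe set intensities on a linear scale for 9 arrays, made with MAS5 per the submitters' processing notes. Further deposited files give the log2 ratio of each ES array to the EBs and detection p-values for 1 ORMES6 array, the other 4 lines and part of the fibroblast probe sets, per the file headers. Here a p-value below 0.05 was read as Present and above 0.065 as Absent. The probe design, its species match and a genome build are not given in the sources used here, and 136 further columns were not used.

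After 99 control probe sets and 3 with missing values were left out, 52763 of 52865 remained, of which 40363 carried 1 gene symbol (19671 genes), mostly of human orthologues. Signals of different probe sets were set beside each other only to pick a gene's brightest one and in marker sums, which bright probe sets dominate. In R 4.3.3, limma 3.58.1 (lmFit, eBayes with trend) was run on log2(signal + 16). The 5 ES lines were the replicates, with ORMES6 as the mean of 3 replicates, and EBs and fibroblasts were lone arrays of the same fit (residual df 4, median prior df 5.04). Benjamini-Hochberg adjustment ran over all 52763 probe sets, and results under 0.05 were called. The lines were compared by an F test over 7 ES arrays whose error comes from ORMES6, and singly against the other 4. The number of arrays limits the precision.

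The members, the pathway and marker lists and the tests were chosen with earlier results of these data known. Named were all members, up to 4 genes of each pathway role (called ones first) and, for members spanning at least 3 log2 units, the 3 genes of nearest profile. A gene of the pathway list is counted but not reported here by itself and not plotted. LUM, DCN, COL1A2, THY1, FAP, PRRX1, LOX and the liver, endoderm and trophoblast genes named were singled out from the marker lists after their values were seen. On data simulated in 5 runs of 52763 probe sets, 200 of them changed, the lone-array fit called 0.391%, 9.7%, 91.1% and 99.6% of changes of 1, 2, 4 and 6 log2 units. Alternatives were other offsets, normalizations, filters, variance models, replicate units, probe sets, a spike covariate and leaving out lines or replicates.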

Additional observations from a re-analysis of the deposited data

Results flagged for a closer look

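On its brightest probe set, none of the 7 IGF binding proteins had an ES line far from the other 4 by Dixon's ratio. This is the gap of the outermost line to its neighbour over the whole range, which for 5 lines has a 95% critical value of 0.71. Other probe sets were not screened, and the statement does not extend to them. On MmuSTS.632.1.S1_at of IGFBP5, ORMES13 lay at 7.23 and the next line, ORMES10, at 5.12, in a range of 2.87, which is beyond the critical value. Of 55 member and pathway genes examined, 4 exceeded it, and chance flags about 1 in 20 groups. For AKT2, a kinase below the IGF1 receptor, ORMES6 lay lowest at 8.53 on the log2 scale, against 10.76 to 10.93 in the other lines (ratio 0.929). That ORMES6 level is a mean of replicates far apart, with signals of 131.8, 152.7 and 1995.7 in A, B and C, and AKT2 was not called between lines (adjusted p = 0.715 by limma). For IGF2BP1, an mRNA-binding protein, ORMES6 lay lowest at 7.47, against 8.23 to 8.51 (ratio 0.732), with replicate signals of 132.5, 130.8 and 238.7. For CTGF, a relative with the IGFBP domain, ORMES13 lay lowest at 10.55, against 12.04 to 12.63 (ratio 0.716). Its ORMES6 replicate signals were 7683.6, 8655 and 3792.7. For WISP2, another relative, ORMES13 lay highest at 5.90, against 5.55 to 5.59 (ratio 0.896). WISP2 was dim, with a signal of 43.9 in ORMES13 and 21.0, 37.3 and 38.7 in ORMES6 A, B and C, an SD of 0.32 on the log2 scale. Neither CTGF nor WISP2 was called between lines.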

How the results depend on the processing

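The 5 fibroblast calls were the stable ones over alternative fits of the brightest probe sets: IGFBP2, IGFBP4, IGFBP6 and IGFBP7 kept theirs in all 17 and IGFBP5 in 15. By probe sets other than the brightest 3 members were called, IGFBP3, IGFBP4 and IGFBP5 (IGFBP2 and IGFBP6 have no other). IGFBP7 was not called on MmugDNA.11710.1.S1_at or MmugDNA.5502.1.S1_at (adjusted p = 0.0648 and 0.3 by limma). The EB count of 2 members became 1 with an offset of 1, with quantile normalization or with ORMES6 as replicate C alone (chosen after seeing the data), 1 by probe sets other than the brightest (IGFBP5), and 0 with the 7 ES arrays as separate replicates or with the spike covariate; leaving out a line or an ORMES6 replicate gave 0 to 2. Between lines, 0 members became 1 (IGFBP3) with an offset of 1, with median centring or with a mean signal of at least 100, and leaving out an ORMES6 replicate gave 0 to 5. The EB count of 5 pathway genes became 8 with a mean signal of at least 100, 8 with the 7 ES arrays as replicates and 0 with the spike covariate, and leaving out a line or replicate gave 0 to 6. Directions reversed for other probe sets of IGFBP7 in EBs (-1.21 and -0.751) and of IGFBP1 in fibroblasts (-0.157). The causes were not tested.

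Over all genes, 750 were called in EBs, against 1161 with a mean signal of at least 100, 0 with the spike covariate, 464 without ORMES6 replicate C, and 423, 410 and 288 without ORMES7, ORMES9 and ORMES10. Between lines 32 were called, against 97 with median centring, 84 with a mean signal of at least 100, 2 with no variance trend, 0 without ORMES6 replicate A or B and 5244 without C. The fibroblast count of 3578 stayed within 1.5 times. IGFBP1 has no value at a mean signal of at least 100. Detection calls of the EBs were not used, and signals near background limit what IGFBP1 and the dim probe sets can show. In the simulation a lone array seldom passed for changes of 2 log2 units or less. Fewer probe sets were changed there than were called in the data, so its rates do not carry over directly. In the data some differences below 2 passed, such as IRS2 at 1.80 in fibroblasts and FOXO1 at -1.36 in EBs. No paired analysis was possible because the EBs were 1 pooled array of unnamed lines and the fibroblasts were 1 array.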
